A study of Homo sapiens with 12 samples.

Results

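The most downstream short window of each gene was examined in 4 tables of m6A sequencing. The cells were NOMO-1, an established line of human acute myeloid leukaemia (AML) with monocytic features. The cells had been infected with lentivirus carrying sgMETTL16-1 or sgMETTL16-2, which target the RNA methyltransferase METTL16, or the control guide sgNS. All 3 groups were puromycin-selected at 2 ug/ml for 1 to 2 weeks and were not described as clones. Poly(A)-selected RNA was read as input and, after pull-down with an m6A antibody, as IP, giving 2 input and 2 IP libraries per guide and 12 libraries in all. The 4 tables hold the authors' comparisons of knockout with sgNS, with a table for either replicate number of either knockout guide, and list windows of genes. A window was kept when it was the row nearest the 3′ end of a gene with 5 or more rows on its strand, consisted of 1 block and was shorter than 1000 bases. This gave 6883 and 6045 downstream windows in the sgMETTL16-1 tables (replicates 1 and 2) and 6554 and 5851 in the sgMETTL16-2 tables, together 25333 of 296568 windows. They made up 8.67% and 8.47% of the windows of the sgMETTL16-1 tables and 8.65% and 8.36% of those of the sgMETTL16-2 tables. The other most downstream rows, numbering 225, 293, 231 and 322 in the 4 tables in the same order, had several blocks (216, 273, 221 and 301) or reached 1000 bases (9, 20, 10 and 21).

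N6-methyladenosine (m6A) is deposited on mRNA mainly by the METTL3-METTL14 complex, and is known to be frequent around stop codons and in 3′ untranslated regions. METTL16 is a separate m6A methyltransferase whose well-studied mRNA target is MAT2A, the gene of S-adenosylmethionine synthetase in most tissues. It methylates hairpins in the MAT2A 3′ untranslated region and bears on that transcript's splicing and stability. The comparisons below describe the last window of each gene in METTL16-targeted cells against sgNS cells.

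Each row carried the IP signal relative to input (fold enrichment) and the knockout relative to sgNS (log2 fold change), each with a false discovery rate (FDR). A window was taken as enriched when the FDR of IP over input was under 0.05, and as called when the FDR of the difference was under 0.05. A negative log2 fold change was read as less m6A in the knockout, by the usual convention of such tables, which the tables themselves do not state. The tables held no value per library, so the depth is unknown and no value has a replicate error. The labels do not say whether replicates were separate cultures. Which sgNS libraries entered each table is not stated either, so the tables may share controls. Windows were present in all 4 tables for each of the 8 monocytic markers looked up (CD14, CD33, ITGAM, CSF1R, LYZ, MPO, CEBPA and SPI1). Of 5 lymphoid markers, windows were present for 3 in every table, and for CD3E and MS4A1 in none. The erythroid genes KLF1 and ALAS2 had windows in every table.

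Of the sequences at hand, 3 downstream windows held stretches that show what such a window can contain. GGACC, shown in capitals, is a form of the DRACH consensus of METTL3-METTL14 and lies in windows that also cover the start region of a neighbouring gene. The SEC24C site is at chr10:73772071-73772099 (+) and the RAVER1 site at chr19:10316241-10316265 (-), both GRCh38.p14 from RefSeq and read 5′ to 3′ on the strand of the window's gene:
SEC24C: tgcccctgctctGGACCtctcatttctct
RAVER1: ccccacacGGACCtttgctgaatta
In the same 120-base stretch as the SEC24C window covers, GGACC was present on the given strand in 12.1% of 35116 RefSeq start regions and on either strand in 23.2%. In the 53-base stretch of the RAVER1 window it was present in 5.28%, and on either strand in 10.7%. Enriched windows of GPATCH3, E2F4 and HDAC10 also overlapped a start region. In the overlap, GPATCH3 and E2F4 had no GGACC on either strand, and HDAC10 had it only on the opposite strand. None of these overlaps, nor those of SEC24C and RAVER1, held GGACT. The downstream window of CHPF2 in the sgMETTL16-1 replicate 1 table (chr7:151238290-151238708) held the MIR671 hairpin, the only RefSeq hairpin within any downstream window. Its mature miRNAs, with bases 2 to 8 (the seed) in capitals, were:
hsa-miR-671-5p: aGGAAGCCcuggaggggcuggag
hsa-miR-671-3p: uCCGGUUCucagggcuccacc

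SEC24C encodes a cargo-binding subunit of the COPII vesicle coat. Its downstream window had fold enrichments of 2.32 and 1.64 in the sgMETTL16-1 tables and 4.79 in the sgMETTL16-2 replicate 2 table of the authors' deposited tables, and was enriched in each. Its log2 fold changes there were 0.10, -0.10 and -0.11, none called. In the sgMETTL16-2 replicate 1 table SEC24C had 4 rows, so its last row was not kept. RAVER1, which encodes an RNA-binding splicing repressor, had fold enrichments of 1.80 and 1.87 in the sgMETTL16-1 tables and 1.44 and 1.95 in the sgMETTL16-2 tables of the authors' deposited tables. It was enriched in all but the sgMETTL16-2 replicate 1 table, and its log2 fold changes of 0.23, 0.29, 0.35 and 0.39 were not called. CHPF2 encodes a chondroitin polymerising factor, and its window with the hairpin had a fold enrichment of 2.08 (FDR 1.05e-04) in the authors' deposited table.

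Downstream windows were short and mostly fell below the enrichment threshold. Their median length was 121, 120, 120 and 120 bases in the 4 tables, with a range of 60 to 990 bases. For sgMETTL16-1 replicate 1, the authors' deposited table had 285 enriched downstream windows (4.14%), against 8.1% of all its windows. For sgMETTL16-1 replicate 2 the count was 457 (7.56%), against 11.9% of all windows. For sgMETTL16-2 replicate 1 it was 336 (5.13%), against 10.2%, and for sgMETTL16-2 replicate 2 it was 406 (6.94%), against 12.3%. Inner short windows of the same genes, which are neither the first nor the last row, were enriched in 5.02%, 8.16%, 6.58% and 8.50% of cases. The share of enriched windows was lower downstream than inside in each table, by 1.12 percentage points on average (range of the difference -1.56 to -0.598; exact sign-flip permutation test over the 4 tables, two-sided, p = 0.13, the smallest it can give). Against the most upstream short windows, enriched in 4.58%, 6.64%, 6.13% and 6.85% of cases, the mean difference was -0.108 points (exact p = 0.875). The most downstream rows that the rule left out, for their blocks or length, were enriched in 21.8%, 35.8%, 28.6% and 38.8% of cases. All windows include such long and multi-block rows, so their share is not one for windows of like length.

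The fold enrichment ran the other way from the share called enriched. Its median in the authors' deposited tables was 1.92, 2.05, 2.08 and 2.01 over downstream windows and 1.73, 1.80, 1.82 and 1.76 over inner windows. Within the same gene, the downstream window exceeded the median of the inner windows by 0.14, 0.15, 0.14 and 0.14 in log2 fold enrichment (medians over 6695, 5874, 6404 and 5669 genes), a mean of 0.14 (exact sign-flip p = 0.13). The downstream window was the higher of the pair in 57.4%, 56.5%, 56.3% and 57.0% of those genes. Against the most upstream short window of the gene the differences were 0.04, 0, 0.01 and 0, with a mean of 0.01 (exact p = 0.5). Leaving aside the alternatives of the closing section, 23 such sign-flip tests were made and 10 gave the smallest possible p, which is 0.288 after Benjamini-Hochberg adjustment, so none can pass 0.05 in this design.

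Window length went with the enrichment call. In the sgMETTL16-1 replicate 1 table, 0.04% of downstream windows under 100 bases, 1.67% of those from 100 to under 200, 11.3% of those from 200 to under 500 and 53.3% of those from 500 to under 1000 were enriched. In the longest class the share was highest in the sgMETTL16-1 replicate 2 table, at 71.3%, with both sgMETTL16-2 tables between these values. Against inner windows of the same length class the difference was not of 1 sign in the 4 tables in any class, and the test could not have passed 0.05. In the longest class 61.6% of downstream and 55.6% of inner windows were enriched on average (difference 5.93 points, -1.28 to 11.7; exact p = 0.25), and in the class from 200 to under 500 bases 17.5% and 18.7% (difference -1.20 points, -2.53 to 0.224; exact p = 0.25). The shares rise with length in both kinds of window, in the plot by length.

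**Figure D1:**
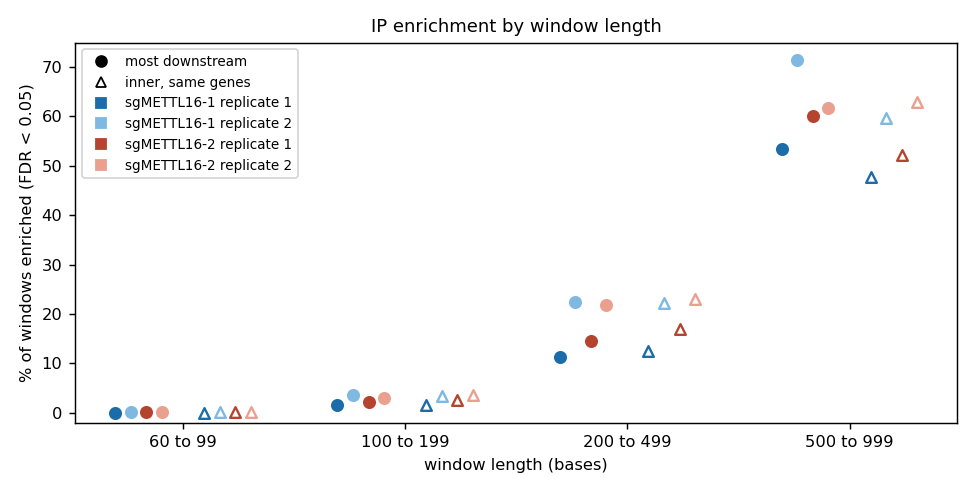
Share of windows enriched in IP over input (%, FDR under 0.05) by window length in bases; filled circles are downstream windows, open triangles inner windows of the same genes, and colours are the 4 tables. Downstream windows go from at most 0.11% under 100 bases to between 53.3% and 71.3% from 500 to under 1000 bases, and inner windows follow the same course.

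Position at the end of the gene went with enrichment as well. Of the downstream windows, 98.9% to 99.1% matched a RefSeq gene (GRCh38.p14), and the median distance from the window to the annotated 3′ end was 207, 270, 209 and 267 bases. Windows ending past the annotated end were enriched in 9.45%, 17.2%, 12.7% and 15.6% of cases. Those 0 to 100 bases before it were enriched in 5.16%, 10.1%, 7.11% and 9.39% of cases, and those over 5000 bases before it in 2.94%, 5.50%, 3.23% and 3.92%. Windows past the end or within 100 bases of it were enriched in 8.95% on average, against 4.36% for those farther inside, a difference of 4.59 points (2.80 to 5.59; exact sign-flip p = 0.13). The difference was 2.43 points among windows from 100 to under 200 bases and 7.84 points among those from 200 to under 500 bases, each in the same direction in all 4 tables (exact p = 0.13). Exon and untranslated-region boundaries were not used here.

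**Figure D2:**
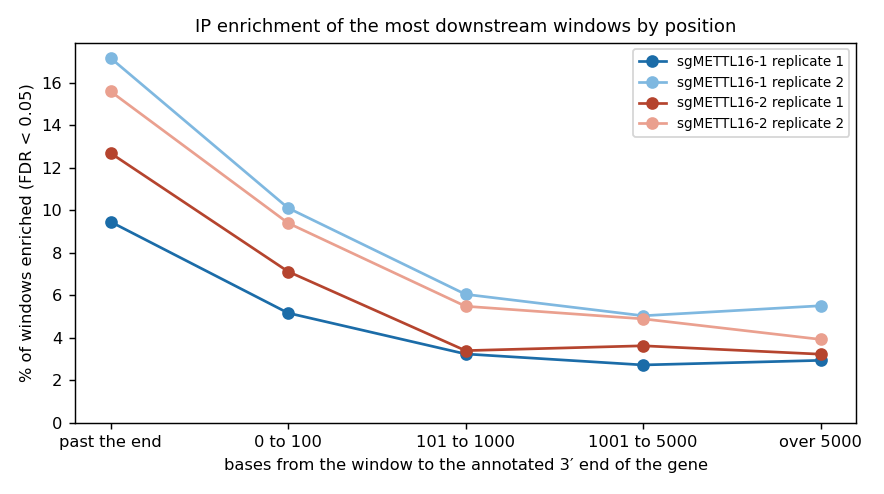
Share of downstream windows enriched in IP over input (%, FDR under 0.05) by distance in bases to the annotated 3′ end of the gene; each line is 1 table. All 4 lines are highest past the end, between 9.45% and 17.2%, and lie at or below 6.04% more than 100 bases inward.

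Protein-coding genes held 95.4% to 95.5% of the annotated downstream windows. Their windows were enriched in 4.31%, 7.70%, 5.32% and 7.15% of cases, against 1.26%, 4.15%, 2.34% and 4.19% of the 239, 193, 214 and 191 windows of long non-coding RNA genes (mean difference 3.14 points, exact p = 0.13).

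Between 221 and 256 downstream windows per table overlapped a row on the opposite strand. These were enriched in 14.8%, 16.7%, 15.9% and 16.7% of cases, against 3.73%, 7.20%, 4.70% and 6.55% of those without such a row, a difference of 10.5 points on average (exact p = 0.13). Overlapping windows were also longer, with a median of 150, 150, 149.5 and 150 bases against 121, 120, 120 and 120. Among windows from 200 to under 500 bases the difference was 12.6 points, between 4.48 and 19.9 in the 4 tables. The values did not separate the strands, although the labels name a stranded library kit: 25 pairs of windows had identical coordinates on both strands, and the authors' deposited tables gave 23 of them the same fold enrichment and 24 the same log2 fold change.

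In the windows with the highest enrichment in all 4 tables, the order varied between tables. Of 3844 genes with a downstream window in all 4 tables, 247 (6.43%) had windows that overlapped by at least 0.5 of each in every pair of tables, and 35 of these were enriched in every table. F2RL3, the thrombin receptor PAR4, had the highest mean: its window on chromosome 19 near 16892019 had fold enrichments of 5.20 and 7.61 in the sgMETTL16-1 tables and 4.56 and 2.35 in the sgMETTL16-2 tables of the authors' deposited tables. TBC1D20, a GTPase-activating protein for RAB1, had 3.39, 2.32, 5.32 and 2.69 in the 4 deposited tables of the authors. CACTIN, a splicing-associated protein, had 1.64, 5.07, 2.26 and 3.72 in the authors' deposited tables, so its lowest and highest values were both sgMETTL16-1. TNK2, a non-receptor tyrosine kinase, had 3.71, 2.91, 2.51 and 2.46, and SPG7, a mitochondrial protease subunit, had 2.62, 2.07, 2.55 and 2.45 in the authors' deposited tables. SPG7 and TNK2 windows ended within 31 bases of the annotated end. TRAF7 and CASKIN1 windows lie on opposite strands and overlap each other, with 2.17, 2.66, 2.22 and 2.48 for TRAF7 and 1.98, 2.57, 5.32 and 2.48 for CASKIN1 in the authors' deposited tables. None of the 10 highest was called different between knockout and sgNS in any table.

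**Figure D3:**
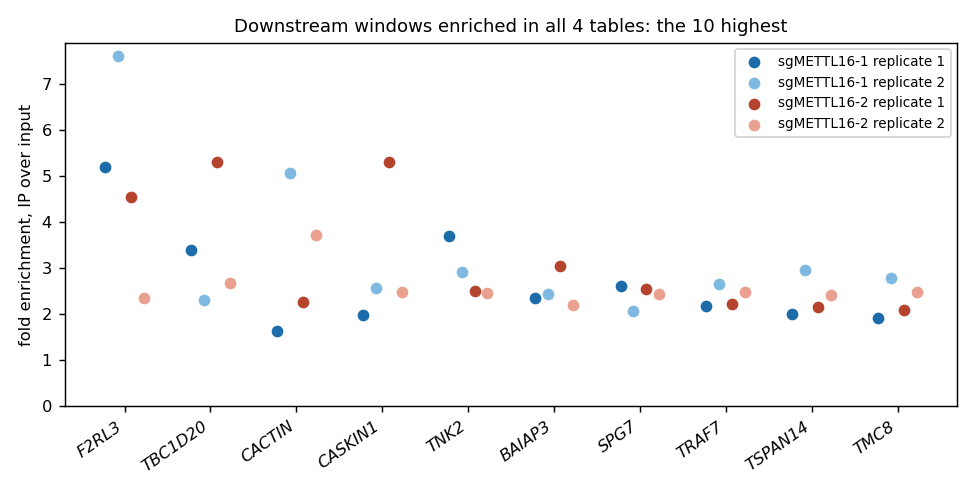
Fold enrichment of IP over input (linear axis) in the 4 tables for the 10 downstream windows with the highest mean among those enriched in all 4; each point is 1 table. F2RL3 spans 2.35 to 7.61 and TBC1D20 2.32 to 5.32, and SPG7 stays between 2.07 and 2.62.

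The 35 windows enriched in all 4 tables had median log2 fold changes of -0.05 and 0.18 in the sgMETTL16-1 tables and 0.16 and 0.12 in the sgMETTL16-2 tables of the authors' deposited tables. All enriched windows of those tables had medians of -0.04, 0.13, 0.12 and 0.14. Of the 35, 3 were called, all in the sgMETTL16-2 replicate 1 table. Of the 336 enriched downstream windows there, 23 were called, so the 3 of 35 are near the share of such windows. The share of all windows called was also highest there, at 1.84%.

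Few downstream windows differed between knockout and sgNS. In the authors' deposited tables, 3 were called lower and 1 higher for sgMETTL16-1 replicate 1 (all windows: 0.281% lower, 0.0743% higher), and 3 lower and 13 higher for sgMETTL16-1 replicate 2 (0.167% and 0.583%). For sgMETTL16-2 replicate 1, 15 were called lower and 22 higher (0.965% and 0.875%), and for sgMETTL16-2 replicate 2, 2 lower and 5 higher (0.149% and 0.586%). The share called in either direction was 0.058%, 0.265%, 0.565% and 0.120% of downstream windows, against 0.355%, 0.749%, 1.84% and 0.734% of all windows. Against inner windows of the same genes the difference was -0.121 points on average (-0.404 to 0.0715; exact sign-flip p = 0.375). The share called lower was smaller in downstream than in inner windows in all 4 tables, at 0.0891% against 0.212% on average, a difference of -0.123 points (-0.364 to -0.0191; exact p = 0.13). The share called higher was 0.163% against 0.161% (difference 0.00207 points, -0.0395 to 0.0962; exact p = 1). At an unadjusted p under 0.05 the counts were 170, 202, 235 and 197, which is 2.47%, 3.34%, 3.59% and 3.37% of downstream windows, against 3.10%, 3.57%, 5.58% and 3.86% of inner windows. The deposited p-values of the difference looked one-sided, since the highest in the most strongly enriched windows was 0.537. With a two-sided p made from them, lower and higher calls were 2 and 1, 1 and 7, 8 and 13, and 0 and 3 in the 4 tables. Called windows were longer than uncalled ones, with a median of 330, 553, 300 and 807 bases against 121, 120, 120 and 120. Of the 64 calls, 33 of the 41 higher ones and 7 of the 23 lower ones were on enriched windows. By table, these were 0 of 1, 10 of 13, 19 of 22 and 4 of 5 higher calls. For lower calls they were 2 of 3, 1 of 3, 4 of 15 and 0 of 2. The sgMETTL16-1 replicate 1 table thus went the other way, and the same split is not given here for inner or all windows. The most downstream rows that the rule left out were called in either direction in 0.889%, 3.41%, 4.33% and 1.86% of cases.

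**Figure D4:**
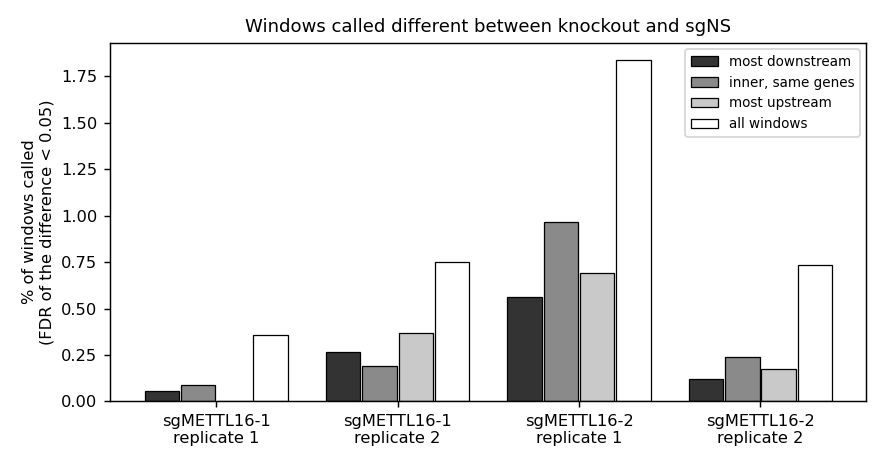
Share of windows called different between knockout and sgNS (%, FDR under 0.05) in each table, for downstream, inner, upstream and all windows. The bar of all windows is the tallest in each table, up to 1.84%, and downstream windows reach at most 0.565%.

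The median log2 fold change of downstream windows in the authors' deposited tables was 0, 0, -0.003 and 0. Over the enriched downstream windows it was -0.02, 0.13, 0.17 and 0.14, and over enriched inner windows 0.001, 0.14, 0.15 and 0.11, in the authors' deposited tables. Within genes it exceeded that of the inner windows by 0, 0.03, -0.02 and 0.05, a mean of 0.01 (exact sign-flip p = 0.5). A value of exactly 0 was found in 10.4%, 13.3%, 12.1% and 11.6% of downstream windows and in 7.67%, 8.66%, 7.51% and 8.20% of inner ones (mean difference 3.85 points, exact p = 0.13).

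GGCX, the gamma-glutamyl carboxylase of the vitamin K cycle, was the downstream window called most often. Its window lay on the minus strand at chr2:85544780-85545169 in the sgMETTL16-1 replicate 1 table. Its log2 fold changes were -0.70 and -0.73 in the sgMETTL16-1 tables and -0.64 and -0.68 in the sgMETTL16-2 tables of the authors' deposited tables, with FDRs of 0.00295, 0.103, 0.00891 and 0.0427. All 4 values were negative, and all but sgMETTL16-1 replicate 2 were called. It was the only downstream window called lower in both tables of a guide, sgMETTL16-2, out of 1111 with windows overlapping by at least 0.5. Called higher in both were 0 of the 1111 (all windows: 0.0613% lower, 0.529% higher). The count of 1 lower is near the share of all windows. The GGCX windows in the sgMETTL16-2 tables were 420 and 211 bases long. For sgMETTL16-1, 0 of 1102 were called in both tables in either direction (0.0449% lower, 0.02% higher), and 0 of 247 in all 4 (0.0436% each way).

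The GGCX window is not separable from the end of MAT2A, which ends on the opposite strand at the same place. MAT2A had 2 or 3 rows per table, so it has no downstream window under the rule. Its last row shared 382 of 390, 121 of 121, 420 of 420 and 187 of 211 bases with the GGCX window. In the authors' deposited tables MAT2A had log2 fold changes of -0.71, -0.81, -0.73 and -0.61 at this place, within 0.1 of the GGCX values in each table, with FDRs of 5.37e-05, 0.0151, 7.76e-05 and 0.123. The MAT2A row was thus called in both sgMETTL16-1 tables and not in sgMETTL16-2 replicate 2, whereas the GGCX window was called in both sgMETTL16-2 tables and not in sgMETTL16-1 replicate 2. The fold enrichment of the GGCX window was 2.60, 1.19, 4.18 and 1.21 in the authors' deposited tables and passed the enrichment threshold only in sgMETTL16-2 replicate 1. No other row of GGCX was called in any table.

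**Figure D5:**
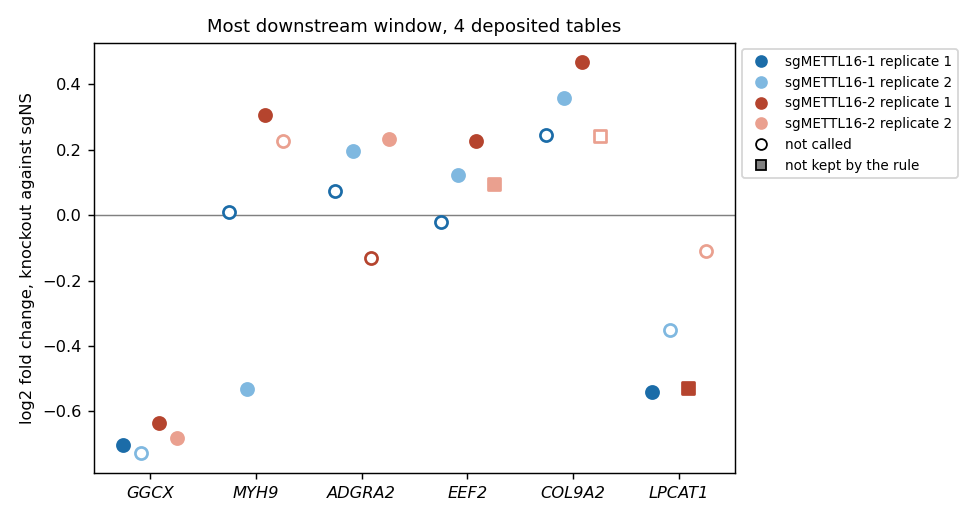
Log2 fold change, knockout against sgNS, of the last window of 6 genes in the 4 tables; filled points are called (FDR under 0.05), open points not called, and squares are last rows that the rule does not keep. All 4 GGCX points lie between -0.73 and -0.64, and MYH9 has called points on both sides of 0.

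METTL16 itself had a downstream window in every table, which was neither enriched nor called. Its log2 fold changes were 0.55 and 0 in the sgMETTL16-1 tables and 0.23 and 0.41 in the sgMETTL16-2 tables of the authors' deposited tables, with FDRs between 0.650 and 0.824. The window reports m6A and not the level of the transcript, so it does not check the knockout.

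Beside GGCX, 2 enriched windows were lower in the sgMETTL16-1 replicate 1 table. LPCAT1, which makes phosphatidylcholine from its lyso form, was lower at -0.54 (FDR 7.24e-04) in the authors' deposited table, over chr5:1461427-1462174. The same coordinates were lower at -0.53 (FDR 8.71e-04) in the sgMETTL16-2 replicate 1 table of the authors' deposited tables, where the gene had too few rows to be kept. In the replicate 2 tables its windows were shorter, 120 and 240 bases, and had log2 fold changes of -0.35 and -0.11 that were not called in the authors' deposited tables. AGBL5, a tubulin deglutamylase, was lower at -0.49 (FDR 0.0398) in the sgMETTL16-1 replicate 1 table of the authors' deposited tables. Its other values were -0.19, -0.46 and -0.27 in the authors' deposited tables, not called, with an FDR of 0.0513 for sgMETTL16-2 replicate 1. The AGBL5 window ended 4 bases past the annotated end and overlapped a window on the opposite strand. In the sgMETTL16-2 replicate 1 table of the authors' deposited tables the enriched windows called lower were those of KCNK6 at -0.92, MYCBP2 at -0.65, DOK3 at -0.65 and GGCX. KCNK6 is a potassium channel gene, MYCBP2 encodes a ubiquitin ligase, and DOK3 encodes an adaptor protein of immune receptor signalling. Their last rows in the other 3 tables (sgMETTL16-1 replicates 1 and 2, sgMETTL16-2 replicate 2) were not called. Log2 fold changes there were -0.87, 0.03 and -0.01 for KCNK6 and 0.03, -0.22 and -0.60 for MYCBP2 in the authors' deposited tables. DOK3 had -0.295, -0.12 and -0.08 in the authors' deposited tables, and only its sgMETTL16-1 replicate 2 row was kept by the rule.

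Most windows called higher were enriched in IP over input. For sgMETTL16-1 replicate 2 they included ZNF263 (a zinc finger transcription factor) at 1.44, FAAP100 (of the Fanconi anaemia core complex) at 0.91, SLC29A3 (a nucleoside transporter) at 0.88, ABR at 0.56 and SCAF4 at 0.47 in the authors' deposited table. The ZNF263 window had log2 fold changes of -0.07, -0.28 and 0.62 in the other tables of the authors' deposited set, none called, and other coordinates in both replicate 1 tables. For sgMETTL16-2 replicate 1, ZNF324 was higher at 1.57, B4GALNT3 at 1.51, PLEC at 1.00, SCAP at 0.94 and DGCR2 at 0.88 in the authors' deposited table. B4GALNT3 encodes a glycosyltransferase, PLEC the cytoskeletal linker plectin, and SCAP the sterol-sensing escort of SREBP. The gap between the SCAP window and that of PTPN23, on the opposite strand, was 393 bases, and PTPN23 was higher at 0.75 in the same table of the authors' deposited set; it was named after its values were seen. For sgMETTL16-2 replicate 2, ZNF213 was higher at 0.88, NCLN (nicalin, of the endoplasmic reticulum) at 0.55, ENG (endoglin) at 0.39 and ADGRA2 at 0.23 in the authors' deposited table. ENG had not-called values of 0.37 and 0.32 in the sgMETTL16-1 replicate 2 and sgMETTL16-2 replicate 1 tables of the authors' deposited set, and its last row in sgMETTL16-1 replicate 1, not kept by the rule, had -0.03.

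Besides GGCX, 4 genes had a downstream window called in 2 tables, so 5 of 58 called genes did and 53 were called in 1. ADGRA2, an adhesion G protein-coupled receptor gene, was higher at 0.20 in sgMETTL16-1 replicate 2 (FDR 9.55e-04) and 0.23 in sgMETTL16-2 replicate 2 (FDR 1.12e-05) of the authors' deposited tables, over the same coordinates. The replicate 1 tables had other ADGRA2 windows, with log2 fold changes of 0.08 and -0.13 in the authors' deposited tables, not called. The ADGRA2 window at -0.13 was 91 bases long and not enriched (FDR of IP over input 0.365). Other ADGRA2 rows called higher numbered 0 and 2 for sgMETTL16-1 (replicates 1 and 2) and 5 and 2 for sgMETTL16-2, and none was called lower. In sgMETTL16-2 replicate 1 these other rows had a median log2 fold change of 0.52 in the authors' deposited table. COL9A2, a collagen chain gene, was higher at 0.36 in sgMETTL16-1 replicate 2 and 0.47 in sgMETTL16-2 replicate 1 of the authors' deposited tables, and was named after its values were seen. EEF2, translation elongation factor 2, had -0.02 and 0.12 in the sgMETTL16-1 tables and 0.23 in sgMETTL16-2 replicate 1 of the authors' deposited tables, the last 2 called higher (FDRs 1.26e-04 and 1.26e-13). The other 5 EEF2 rows in sgMETTL16-2 replicate 1 were all called higher too, with a median of 0.29 in the authors' deposited table, while 2 of its other rows were called lower and 1 higher in sgMETTL16-1 replicate 2. In the sgMETTL16-2 replicate 2 table the last EEF2 row had several blocks and was not kept, and it was called higher at 0.09 (FDR 9.33e-04) in the authors' deposited table. MYH9, non-muscle myosin heavy chain, was lower at -0.53 in sgMETTL16-1 replicate 2 and higher at 0.31 in sgMETTL16-2 replicate 1 of the authors' deposited tables. The MYH9 calls lie on different coordinates, chr22:36281966-36282116 and chr22:36282296-36282686. Among the other MYH9 rows, 3 were called higher in sgMETTL16-1 replicate 2 and 4 in sgMETTL16-2 replicate 1, and none was called lower in either.

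Among 13 gene lists, calls fell in 2 lists. Of 14, 9, 13 and 6 downstream windows of translation factor genes in the 4 tables, 0, 1, 2 and 0 were called higher and none lower, beside 0.058%, 0.265%, 0.565% and 0.120% of all downstream windows called in either direction. They were EEF2 and EIF4G1 (0.41 in sgMETTL16-2 replicate 1 of the authors' deposited tables). EIF4G1 encodes the scaffold of the cap-binding complex. Over all translation factor windows the median log2 fold changes were below 0, at -0.23, -0.35, -0.36 and -0.22 in the authors' deposited tables. Of 6, 4, 6 and 6 windows of abundant nuclear and long non-coding RNAs, 1 was called, MALAT1, lower at -0.86 in sgMETTL16-2 replicate 1 of the authors' deposited tables. That MALAT1 window was not enriched (fold enrichment 1.15, FDR 0.339, in the authors' deposited table). Other MALAT1 rows were called lower in every table, numbering 2, 1, 3 and 1, and no other row was called higher. No window was called in the other 11 lists: the methionine cycle, m6A writers, erasers and readers, 3′ end processing, ribosomal proteins, AML genes, myeloid differentiation, spliceosome, mRNA decay, the integrated stress response, cell cycle, and lymphoid and erythroid markers. The writer, eraser and reader genes had 18, 15, 20 and 14 windows, with median log2 fold changes of -0.01, 0, -0.60 and -0.05 beside 0, 0, -0.003 and 0 over all downstream windows in the authors' deposited tables. Ribosomal protein genes had 8, 5, 9 and 7 windows, none enriched, with median log2 fold changes of -1.09, -0.80, -0.58 and -0.94 in the authors' deposited tables. Genes of mRNA decay had 16, 14, 17 and 18 windows, of which 2, 3, 3 and 4 were enriched (12.5%, 21.4%, 17.6% and 22.2%, against 4.14%, 7.56%, 5.13% and 6.94% of all downstream windows). Such shares were not particular to this list. Those of the integrated stress response were 11.1%, 12.5%, 20% and 22.2%, of 9, 8, 10 and 9 windows. Translation factors had 14.3%, 33.3%, 23.1% and 0%, and cell cycle genes 14.3%, 14.3%, 0% and 13.3%. Among the decay genes, the following recurred. UPF1, the nonsense-mediated decay helicase, SMG5, a decay factor that binds it, and CNOT2, a subunit of the CCR4-NOT deadenylase, were each enriched in 3 tables.

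The last window of a gene changed place between tables. Of 3844 genes with a downstream window in all 4 tables, 856 had windows sharing at least 1 base in every pair and 170 (4.42%) ended at the same base. In 3413 of them the window was enriched in no table, in 227 in 1, in 100 in 2, in 56 in 3 and in 48 in all 4. At the edge of the rule, the last rows of genes with 5 rows were enriched in 7.0%, 9.64%, 8.64% and 7.91% of cases, and those of genes with 4 rows in 9.09%, 11.7%, 11.4% and 12.1%. Windows from 900 to under 1000 bases numbered 6, 10, 9 and 9, and 5, 9, 9 and 7 of them were enriched. Last rows from 1000 to under 1100 bases numbered 2, 4, 2 and 9, and 1, 3, 2 and 8 of them were enriched.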

How the data were processed

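Polyadenylated RNA of NOMO-1 cells with sgMETTL16-1, sgMETTL16-2 or sgNS gave 12 libraries, input and m6A IP. Per the submitters' processing notes, alignment used STAR and GRCh38. The sources used here do not give the peak caller, the annotation or the sgNS libraries behind each table. There are 4 tables as deposited by the authors, 1 per guide and replicate number, with per row a p-value score, a log10 p and FDR score of IP over input, a fold ratio of IP over input, a log10 p and FDR score of the difference, and a log2 fold change, per the file headers. No value per library was used, so depth is unknown.

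Downstream windows were chosen by position, block count, length and the number of rows of the gene, without use of the enrichment or difference values. Length went with the enrichment call and with the call of a difference, so the choice is not independent of them. Distances used RefSeq genes of GRCh38.p14 on the same chromosome within 50000 bases. Shares and within-gene medians were compared over the 4 tables by an exact two-sided sign-flip permutation test. The tables give no replicate spread, and tables of 1 replicate number cannot be checked for pairing. No genome was used, so windows were not searched for motifs beyond the RefSeq start regions. The members and gene lists were chosen with earlier results of these data known. Named were METTL16 and MAT2A, windows called in both tables of a guide or all 4, the 5 largest called and enriched ones per direction and table, the 10 most enriched in all 4 tables, and up to 4 called per list. Windows with printed sequences, and those said to be named after their values were seen, fall outside it. In windows with the strongest enrichment the p-values of the difference reached 0.514 to 0.537 at most, so they looked one-sided and a two-sided alternative was run. Python 3.11.15, pandas 2.3.3, numpy 2.4.6, scipy 1.17.1 and matplotlib 3.10.9 were used, and the steps were tested on simulated data.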

Additional observations from a re-analysis of the deposited data

How the results depend on the processing

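The within-gene excess in log2 fold enrichment over inner windows was 0.13 to 0.18 under all alternatives run (other rows, matched length, enriched windows, 10 or more rows per gene), 0.13 to 0.14 when a replicate was left out, and 0.14 with a replicate block (exact p = 0.5, the smallest possible with 2 values). The excess in log2 fold change was 0.01 and turned to -0.00375 against all other rows (exact p = 1), -0.0237 for enriched windows (exact p = 0.625) and -0.0118 to 0.0418 without a replicate; with a replicate block it was 0.01 (exact p = 1). The difference in enriched share was -0.585 points at an FDR of 0.01.

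Call counts depended on the thresholds, and the cause was not tested. At an FDR of 0.01, lower and higher calls were 0 and 5 for sgMETTL16-1 replicate 2, 6 and 7 for sgMETTL16-2 replicate 1, and 0 and 2 for sgMETTL16-2 replicate 2. Under a minimum fold enrichment of 2 the counts were 1 and 0, 0 and 6, 1 and 6, and 0 and 2 in the 4 tables. With lengths under 500 bases, higher calls were 5 for sgMETTL16-1 replicate 2 and 1 for sgMETTL16-2 replicate 2. With 10 or more rows per gene they were 1 and 0, 1 and 1, 3 and 1, and 1 and 1. With a two-sided p, they were 1 and 7, 8 and 13, and 0 and 3 in the last 3 tables. Without windows overlapping the opposite strand, an alternative added after seeing the data, lower calls were 1 for sgMETTL16-1 replicate 1 and 1 for sgMETTL16-2 replicate 2. The 1 window called lower in both sgMETTL16-2 tables (GGCX) became 0 at an FDR of 0.01, a fold enrichment of 2, an overlap of 0.8, a two-sided p (for shared calls, also added after seeing the data) and without opposite-strand overlaps. Leaving out a replicate leaves 1 table per guide, so the counts within a guide only repeat those of the single tables. These were 3 lower and 1 to 13 higher calls for sgMETTL16-1, and 2 to 15 and 5 to 22 for sgMETTL16-2. Over both guides, leaving out a replicate gave 0 to 1 shared calls each way. Of the 58 called genes, 38 lost their calls at an FDR of 0.01, 43 at a fold enrichment of 2, 17 under 500 bases, 52 with 10 or more rows, 27 with a two-sided p and 6 without opposite-strand overlaps. Depth is unknown, so a count of 0 does not show that a window did not change.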
